A study of Rattus norvegicus with 8 samples.

Results

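The endothelial genes of the left ventricle were followed across 8 whole-transcript expression arrays, 4 from PD5 rats and 4 from SHR rats, 1 array per animal. The list held 45 genes of the vessel lining: pan-endothelial, capillary, arterial, venous, endocardial and lymphatic genes, with ligands that act on them. Of these, 37 were named by at least 1 probe set that names that gene alone, out of 17309 genes measured in all, and the 37 rest on 400 probe sets. Pecam1, Cldn5, Eng, Kdr, Rgcc, Ephb4, Ackr1 and the listed symbol Npr3l, which matched no gene in the reference gene table, had no such probe set and were not analysed here. The set was picked after its members had been seen to lie on both sides of 0 in the comparison of PD5 with SHR. All strain differences of the members below are therefore a description of these 8 animals, given with their errors and with no test drawn from them.

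PD5 is a minimal congenic strain of SHR by the study's title. By general knowledge it carries a short foreign segment around Zbtb16 on chromosome 8, whose bounds neither the labels nor the title state. SHR is the spontaneously hypertensive rat, whose genome is the background of PD5. All 8 animals were males aged 2 months on standard chow, bred in-house, and their left ventricular myocardium was snap frozen. PD5 animals carried the numbers 207, 209, 210 and 212 and SHR animals the numbers 213, 215, 218 and 219. The strains share no number, and no litter, batch or scan date is given, so animal order and strain cannot be told apart.

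Endothelial cells line every vessel and the inner surface of the heart chambers. In the myocardium they form a dense capillary bed that hands fatty acids and oxygen to the cardiomyocytes. They sense VEGF, angiopoietins, apelin, BMPs and sphingosine 1-phosphate through surface receptors, hold their junctions with VE-cadherin, keep blood from clotting, and display adhesion molecules when inflammatory signals activate NF-κB. ETS and SOX factors such as Erg, Fli1 and Sox17 maintain their identity.

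Values are log2 signals, averaged over the probe sets of a gene, and differences are PD5 minus SHR on that log2 scale with the standard error (SE) of a limma fit over all 17309 genes. An adjusted p under 0.05 over all genes counts as passing. By that measure 9 genes passed, or 0.052%, 4 of them higher (0.0231%) and 5 lower (0.0289%) in PD5, and 0 of the 37 endothelial genes did. A variance model that follows the signal level passed 47 genes, 1 of them a member, S1pr1. At an unadjusted p under 0.05 there were 6 endothelial genes, 5 higher and 1 lower in PD5, where 5.68% of all genes reached that mark, 2.77% higher and 2.91% lower in PD5. The 4 PD5 and 4 SHR values did not overlap in 5 endothelial genes, which were S1pr1 on the lower side and Vcam1, Thbd, Vwf and Tmem100 on the higher side. Over all genes 3.46% did not overlap, 1.58% higher and 1.88% lower in PD5. Because this comparison chose the set, nothing is read from the members' counts against these shares. In all, 26 members were above 0 and 11 below, with a median difference of 0.04, where 49.9% of all genes were above 0 with a median of 0.00. The median size of a difference, whatever its sign, was 0.06 in the members and 0.07 in all genes.

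**Figure D1:**
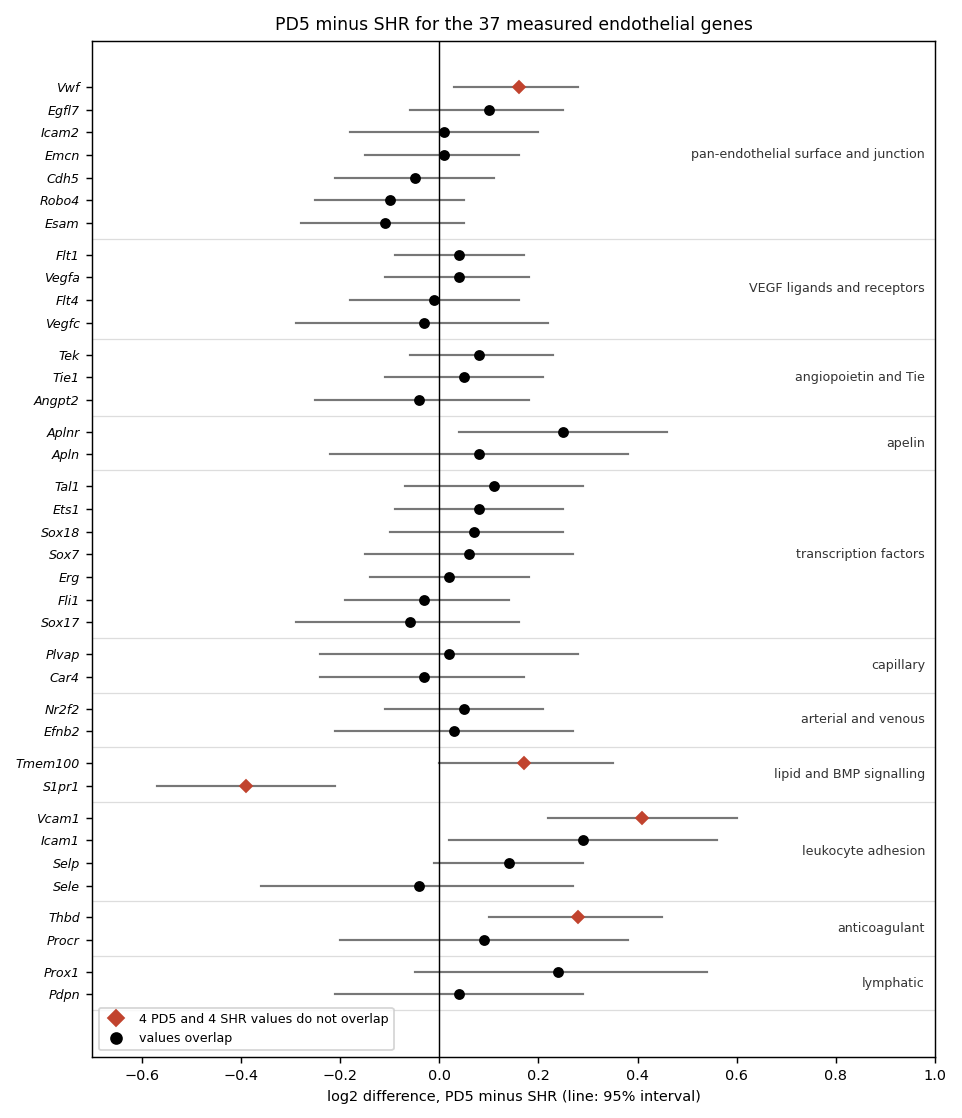
Log2 difference, PD5 minus SHR (horizontal axis), of the 37 measured endothelial genes grouped by role; points are fitted differences and lines their 95% intervals. Red diamonds mark the 5 genes whose 4 PD5 and 4 SHR values do not overlap: S1pr1 at -0.39, Vcam1 at 0.41, Thbd at 0.28, Tmem100 at 0.17 and Vwf at 0.16.

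The 2 members farthest from 0 were S1pr1 and Vcam1, and they lie close together on chromosome 2, with 3 protein-coding genes between them. The bases just before their transcription starts are shown with those of Icam1, another leukocyte adhesion gene that NF-κB is known to induce. Each line gives the 250 bases upstream of the start, 5′ to 3′ on the gene's strand, from RefSeq on the GRCr8 build. Capitals mark the NF-κB consensus GGGRNWYYCC, searched on both strands, and the TATA box TATAAA, searched on the sense strand. In the consensus R is A or G, W is A or T, Y is C or T and N is any base.
S1pr1, chr2:206314071-206314320, minus strand: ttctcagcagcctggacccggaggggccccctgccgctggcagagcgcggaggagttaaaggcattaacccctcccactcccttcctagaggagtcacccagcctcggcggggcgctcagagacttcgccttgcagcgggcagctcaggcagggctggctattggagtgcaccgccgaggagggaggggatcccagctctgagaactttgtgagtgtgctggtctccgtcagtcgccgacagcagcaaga
Vcam1, chr2:206742784-206743033, minus strand: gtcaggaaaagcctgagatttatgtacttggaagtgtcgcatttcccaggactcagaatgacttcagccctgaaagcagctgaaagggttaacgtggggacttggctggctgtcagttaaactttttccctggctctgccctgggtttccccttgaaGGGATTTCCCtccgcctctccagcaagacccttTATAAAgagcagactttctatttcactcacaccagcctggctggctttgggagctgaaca
Icam1, chr8:27829595-27829844, plus strand: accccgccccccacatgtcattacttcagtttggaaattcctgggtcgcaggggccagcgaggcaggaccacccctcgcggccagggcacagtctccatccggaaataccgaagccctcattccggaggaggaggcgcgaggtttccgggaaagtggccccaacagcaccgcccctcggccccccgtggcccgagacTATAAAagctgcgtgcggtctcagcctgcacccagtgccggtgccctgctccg

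The Vcam1 window held 1 NF-κB match, 93 to 84 bases before the start, and 1 TATA box. In the Icam1 window the TATA box lay 53 to 48 bases before the start and the NF-κB letters were not found, and the S1pr1 window held neither. Only exact matches were counted, so any window can still hold an NF-κB site that departs from these letters. Over 33469 promoters of the same length, 3.54% held the NF-κB consensus and 8.06% the TATA box. Promoters were at hand for 20 of the 37 members, of which 2 held the NF-κB consensus and 4 the TATA box. The searches for CACCC (KLF factors), GGAAGT (ETS factors) and the AP-1 consensus, TGA and TCA with any 1 base between, all on both strands, gave 1 CACCC in S1pr1, 2 CACCC in Icam1, 1 GGAAGT in Vcam1 and no AP-1 consensus in any of the 3. Over all promoters 49.2% held CACCC, 19.2% GGAAGT and 6.34% the AP-1 consensus. Of the 20 members, 15 held CACCC, 6 GGAAGT and 1 the AP-1 consensus in a promoter. Members were counted as genes and the shares over promoters, so counts and shares are in unlike units and are not compared. No match overlapped another in the 3 windows shown.

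S1pr1 encodes the main endothelial receptor for sphingosine 1-phosphate, a blood lipid that tightens the vessel barrier, and lymphocytes also use it to leave tissues. Its log2 signal was 9.60, 9.71, 9.74 and 9.66 in PD5 animals 207, 209, 210 and 212, against 9.98, 10.01, 10.02 and 10.27 in SHR animals 213, 215, 218 and 219. All 4 PD5 values lay below all 4 SHR values, with SHR 219 apart from the other SHR animals. The difference was -0.39 (SE 0.08, 95% interval -0.57 to -0.21), a PD5 level 0.76 times that of SHR, and -0.32 without SHR 219. All 4 probe sets of S1pr1 were lower in PD5, by -0.45 to -0.33, and 3 of them did not overlap. Lymphocyte markers, which could carry S1pr1 RNA, had mean log2 levels of 6.39 to 6.50 in PD5 and 6.45 to 6.55 in SHR, with 6 of 9 measured markers lower in PD5. Their part in the S1pr1 difference was not tested. In bulk myocardium, fewer cells of a type and less RNA per cell cannot be told apart.

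**Figure D2:**
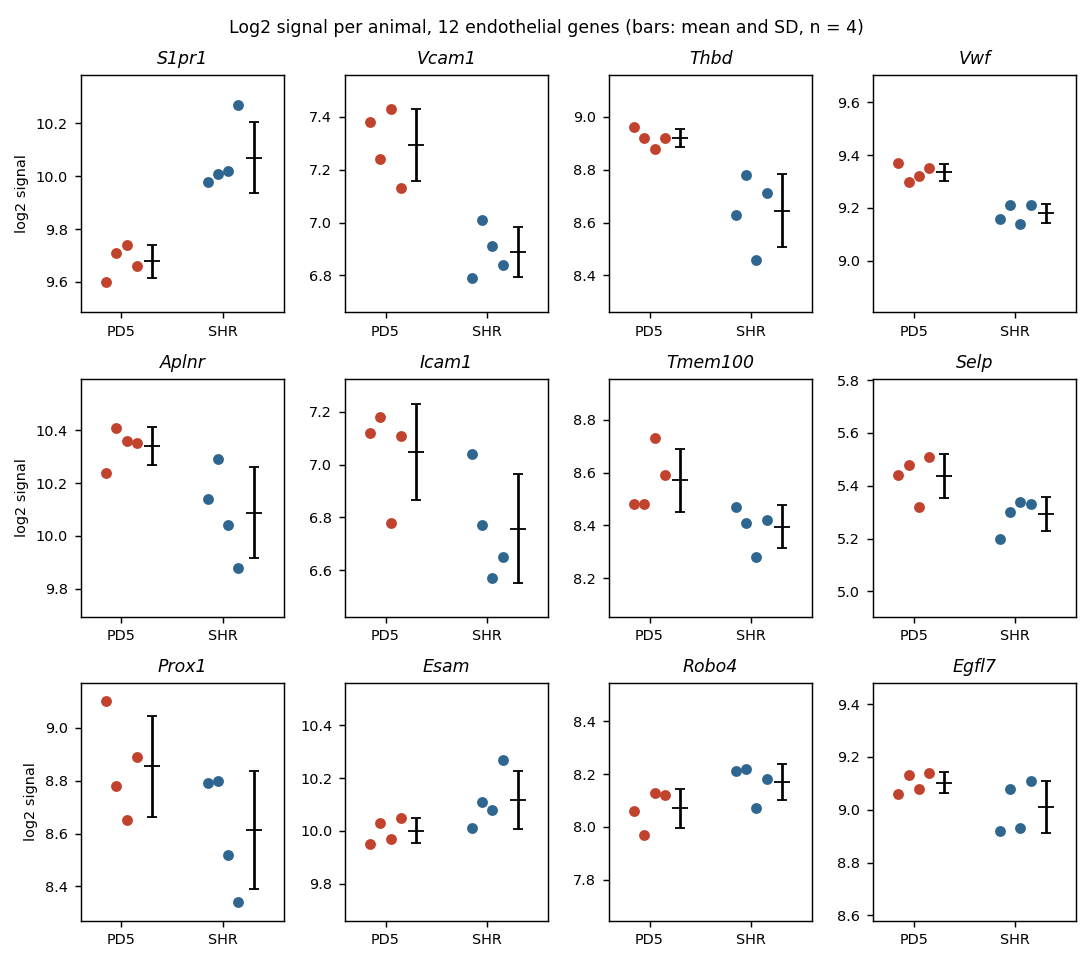
Log2 signal of each animal (points) for 12 endothelial genes, PD5 left in red and SHR right in blue, with mean and SD (n = 4 each); every panel spans the same log2 range. S1pr1 lies lower in all 4 PD5 animals, Vcam1, Thbd, Vwf and Tmem100 lie higher in all 4, and the other 7 genes overlap between the strains.

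The adhesion molecules that catch leukocytes were led by Vcam1. Vcam1, the ligand of the integrin VLA-4, stood at 7.38, 7.24, 7.43 and 7.13 in PD5 animals, against 6.79, 7.01, 6.91 and 6.84 in SHR animals. Every PD5 value lay above every SHR value, and the difference was 0.41 (SE 0.09, interval 0.22 to 0.60), a 1.33-fold level. Its 11 probe sets were all higher in PD5, from 0.12 to 0.88, and 3 did not overlap. The brightest Vcam1 probe set showed the smaller difference of 0.20. The 3 protein-coding genes between S1pr1 and Vcam1 stood near 0, with Dph5 at 0.05 (SE 0.11), Slc30a7 at 0.01 (SE 0.08) and Extl2 at -0.00 (SE 0.08).

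Icam1, the ligand of LFA-1 and Mac-1, was at 7.12, 7.18, 6.78 and 7.11 in PD5 animals and at 7.04, 6.77, 6.57 and 6.65 in SHR animals. The strains overlapped, since PD5 210 lay below SHR 213 and next to SHR 215. The difference was 0.29 (SE 0.12, interval 0.02 to 0.56) and 0.38 without PD5 210. Its probe sets disagreed: 8 of 9 were above 0, the range was -0.31 to 0.71, and the gene's difference was 0.05 with the median of the probe sets in place of their mean and 0.65 with the brightest probe set. Icam1 lies on chromosome 8, as does Zbtb16, with 395 protein-coding genes between them.

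The selectins slow rolling leukocytes. Selp, kept in the storage granules of endothelial cells and platelets, was at 5.44, 5.48, 5.32 and 5.51 in PD5 animals and at 5.20, 5.30, 5.34 and 5.33 in SHR animals. PD5 210 lay within the SHR range, and the difference was 0.14 (SE 0.07). Selp rests on 14 probe sets that ran from -0.52 to 1.13, and the brightest of them gave -0.52, so the sign depends on the probe set. Sele, which cytokines switch on, stood at -0.04 (SE 0.14). Both selectins lay below the array medians of 6.93 to 6.98 over all probe sets, and the files hold no detection call.

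Thrombomodulin, encoded by Thbd, turns thrombin into an activator of protein C. Its signal was 8.96, 8.92, 8.88 and 8.92 in PD5 animals, against 8.63, 8.78, 8.46 and 8.71 in SHR animals. The PD5 animals lay close together and above all SHR animals. The difference was 0.28 (SE 0.08, interval 0.10 to 0.45), and it rests on 1 probe set. Procr, the protein C receptor, was at 0.09 (SE 0.13), with values from 6.18 to 6.62 in PD5 and from 6.18 to 6.67 in SHR.

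Vwf, the large glycoprotein that ties platelets to damaged vessels, was at 9.37, 9.30, 9.32 and 9.35 in PD5 animals, against 9.16, 9.21, 9.14 and 9.21 in SHR animals. These narrow ranges did not overlap, and the difference was 0.16 (SE 0.06, interval 0.03 to 0.28), a 1.11-fold level. Vwf has 45 probe sets, of which 38 were above 0 and 6 below, and in 2 the strains did not overlap. The median over its probe sets gave 0.09 and the brightest probe set 0.07, and with either the strains overlapped.

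**Figure D3:**
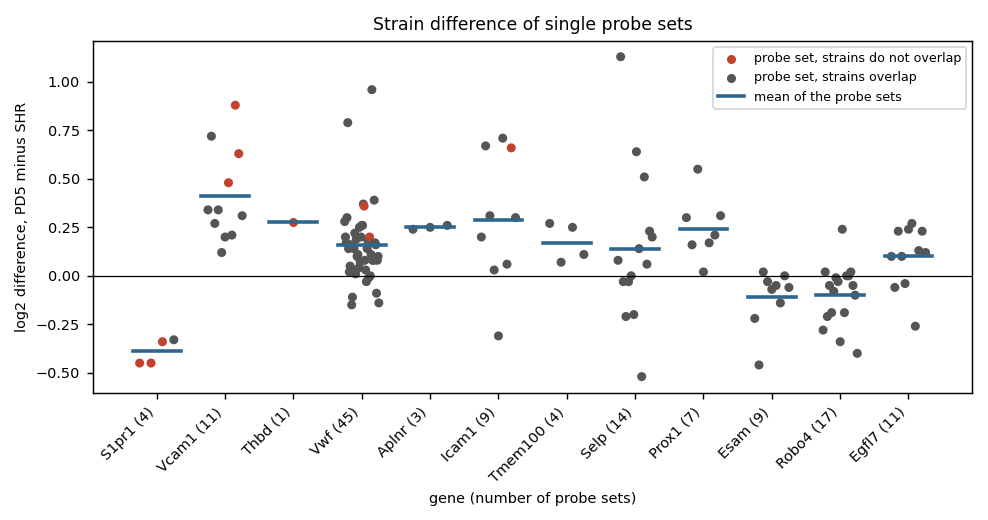
Log2 difference, PD5 minus SHR, of each probe set (points) of 12 endothelial genes, with the number of probe sets in parentheses; red points are probe sets whose strains do not overlap and blue bars the mean of a gene's probe sets. All probe sets of S1pr1 lie below 0 and all of Vcam1, Aplnr, Tmem100 and Prox1 above it, while those of Selp run from -0.52 to 1.13.

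Tmem100, a membrane protein induced by BMP9 signals in arterial endothelium, was at 8.48, 8.48, 8.73 and 8.59 in PD5 animals and at 8.47, 8.41, 8.28 and 8.42 in SHR animals. The gap between the strains was small, with PD5 207 and PD5 209 next to SHR 213. The difference was 0.17 (SE 0.08), and 0.12 without PD5 210.

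The apelin system acts on vessel growth and on the heart's contraction. Aplnr, the apelin receptor of endothelial cells and cardiomyocytes, was at 10.24, 10.41, 10.36 and 10.35 in PD5 animals, against 10.14, 10.29, 10.04 and 9.88 in SHR animals. Only SHR 215 reached into the PD5 range. The difference was 0.25 (SE 0.09, interval 0.04 to 0.46), its 3 probe sets gave 0.24 to 0.26, and it was 0.18 without SHR 219. Apln, the peptide ligand made by sprouting endothelial tip cells, was at 8.37, 8.79, 8.51 and 8.61 in PD5 animals and at 8.62, 8.76, 8.29 and 8.27 in SHR animals. Its strains overlapped widely, with a difference of 0.08 (SE 0.13) that ran from 0.01 without PD5 209 or SHR 219 to 0.18 without SHR 215. Whether the receptor's difference is larger than the ligand's was not tested.

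VEGF drives vessel growth and permeability, and its genes lay near 0. Vegfa, the main ligand and one that cardiomyocytes make, was at 11.36, 11.24, 11.19 and 11.32 in PD5 animals and at 11.31, 11.26, 11.24 and 11.16 in SHR animals, a difference of 0.04 (SE 0.07, interval -0.11 to 0.18). Flt1, the receptor that also acts as a VEGF sink, was at 9.95, 9.99, 9.90 and 9.95 in PD5 animals and at 9.86, 9.94, 9.94 and 9.87 in SHR animals, a difference of 0.04 (SE 0.06). The strains overlapped in both genes. Flt4, the receptor of lymphatic endothelium, was at -0.01 (SE 0.07), and its ligand Vegfc at -0.03 (SE 0.11). The brightest probe sets of Flt1 and Vegfa gave -0.16 and -0.07, on the other side of 0, and in each of them the strains did not overlap.

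The angiopoietin system, which sets vessel quiescence, also lay near 0. Tek, the Tie2 receptor, was at 9.81, 9.88, 9.74 and 9.75 in PD5 animals and at 9.64, 9.70, 9.70 and 9.81 in SHR animals, a difference of 0.08 (SE 0.07). The brightest probe set of Tek gave 0.14, without overlap of the strains. Tie1, its co-receptor, was at 9.66, 9.88, 9.86 and 9.88 in PD5 animals and at 9.72, 9.81, 9.78 and 9.79 in SHR animals, a difference of 0.05 (SE 0.07). PD5 207 held the lowest Tie1 value of all 8 animals. Angpt2, the ligand that loosens vessels, was at 7.10, 7.17, 7.12 and 7.15 in PD5 animals and at 7.16, 7.31, 6.90 and 7.32 in SHR animals, with a difference of -0.04 (SE 0.10).

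The structural genes of the endothelium gave no common shift. Cdh5, or VE-cadherin, was at 11.19, 11.28, 11.29 and 11.30 in PD5 animals and at 11.28, 11.44, 11.20 and 11.33 in SHR animals, a difference of -0.05 (SE 0.07). Esam, an adhesion molecule of endothelial junctions, was at 9.95, 10.03, 9.97 and 10.05 in PD5 animals and at 10.01, 10.11, 10.08 and 10.27 in SHR animals, a difference of -0.11 (SE 0.07). For Esam it was -0.06 without SHR 219 and -0.00 with the median of the probe sets. Robo4, an endothelial receptor that steadies vessels, was at 8.06, 7.97, 8.13 and 8.12 in PD5 animals and at 8.21, 8.22, 8.07 and 8.18 in SHR animals, a difference of -0.10 (SE 0.07). In all 3 genes the strains overlapped.

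Egfl7, a secreted endothelial protein, was at 9.06, 9.13, 9.08 and 9.14 in PD5 animals and at 8.92, 9.08, 8.93 and 9.11 in SHR animals, a difference of 0.10 (SE 0.07). Emcn, a sialomucin of capillaries and veins, and Icam2, an endothelial adhesion molecule, both stood at 0.01 (SE 0.07 for Emcn and 0.08 for Icam2). A core of 8 pan-endothelial markers, of which 6 were measured (Cdh5, Tie1, Esam, Egfl7, Emcn and Icam2), had mean log2 levels of 9.78 to 9.91 in PD5 and 9.77 to 9.94 in SHR. Its median difference was 0.01. With each array centred on this core, the groups of S1pr1, Vcam1, Thbd and Vwf still did not overlap, while those of Tmem100 did. Those of Aplnr, Egfl7 and Esam did not overlap either. Egfl7 and Esam are core genes, so each was centred in part on itself. In that setting 2.47% of all genes did not overlap, and nothing is read from the members' count.

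Among the transcription factors, all 7 were within 0.11 of 0. Tal1, a factor of the blood and vessel lineages, was at 0.11 (SE 0.08), Ets1 at 0.08 (SE 0.08), Sox18 at 0.07 (SE 0.08) and Sox7 at 0.06 (SE 0.09). Erg was at 0.02, Fli1 at -0.03 and Sox17, a factor of arterial endothelium, at -0.06 (SE 0.10). In each of the 7 the strains overlapped. Fli1 and Ets1 lie beside each other on chromosome 8 with 298 and 297 protein-coding genes between them and Zbtb16, and Esam and Robo4 lie nearer, with 248 and 251. With Icam1 these were the 5 members on that chromosome, and 15 chromosomes held the 37 members.

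Other members mark types of vessel. In capillaries, Car4, a carbonic anhydrase on the cell surface, was at -0.03 (SE 0.09), and Plvap, which forms diaphragms over openings in the endothelium, at 0.02 (SE 0.11). Efnb2, the arterial ephrin, was at 0.03 (SE 0.11) and Nr2f2, which sets venous identity, at 0.05 (SE 0.07). Prox1, the factor that sets lymphatic identity and is also made in cardiomyocytes, was at 9.10, 8.78, 8.65 and 8.89 in PD5 animals and at 8.79, 8.80, 8.52 and 8.34 in SHR animals. The strains overlapped, with a difference of 0.24 (SE 0.13) and of 0.15 without SHR 219. Pdpn, which lymphatic vessels share with the mesothelium, was at 0.04 (SE 0.11), and its highest value, 8.52, was in SHR 219, the animal with the highest mesothelial markers. The part of mesothelium in the Pdpn values was not tested.

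**Figure D4:**
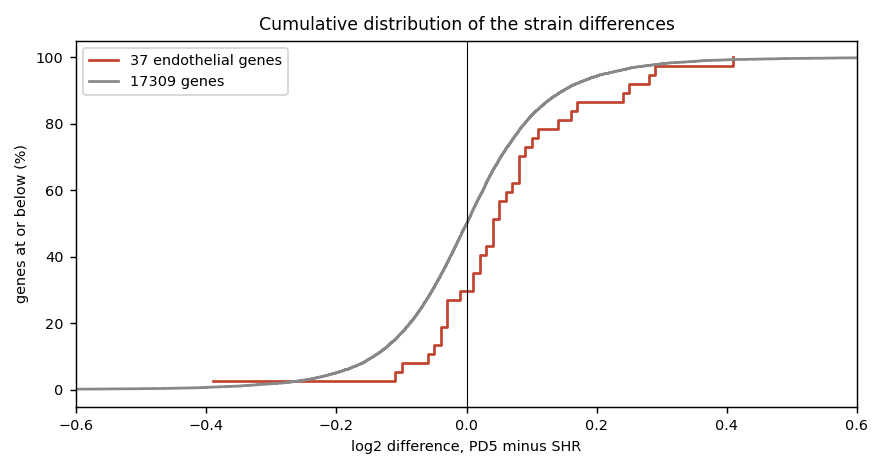
Cumulative share of genes (vertical axis, percent) at or below a given log2 difference, PD5 minus SHR (horizontal axis), for the 37 endothelial genes in red and all 17309 genes in grey. The median lies at 0.04 for the endothelial genes and at 0.00 for all genes.

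The animals of one strain also differed among themselves, a measure that leaves the strain contrast out. With each strain's mean removed, the 666 pairs of endothelial genes had a median Pearson r of 0.20 over the 8 animals, against 0.01 over all gene pairs, and 25.2% of the endothelial pairs had an r above 0.5, against 14.2% of all pairs. Pairs within the measured core had a median r of 0.52 and the 6 pairs of leukocyte adhesion genes one of -0.24. These values are a description: all genes of an animal share its array, and 8 animals give few points. The median over the members was 0.09 without SHR 215 and 0.05 when gene values were medians of the probe sets.

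In that pattern 17 of the 37 genes had an r above 0.5 with the mean of the other core genes. All the measured core genes are among the 17. Shares over all genes were not computed for this r, so nothing is read from its counts. Car4 was highest at 0.95, followed by Egfl7 at 0.85, Vegfc at 0.78, Icam2 at 0.77 and Cdh5 at 0.71, with the ETS factors Erg at 0.70, Fli1 at 0.70 and Ets1 at 0.67. At the other end 6 genes had an r below 0, which were Vcam1 at -0.06, Icam1 at -0.07, Sox17 at -0.16, Nr2f2 at -0.19, Prox1 at -0.24 and Vegfa at -0.42. SHR 215 held the highest SHR value in 56.8% of the endothelial genes and in 25.8% of all genes. SHR 218 held the lowest SHR value in 40.5% of them and in 34.2% of all genes, and PD5 207 held the lowest PD5 value in 40.5% and 25.6%. The core mean deviated from its mean over the 8 animals by -0.07 in PD5 207, 0.06 in PD5 209, -0.02 in PD5 210 and 0.03 in PD5 212. In SHR animals 213, 215, 218 and 219 the deviations were -0.08, 0.09, -0.05 and 0.04.

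**Figure D5:**
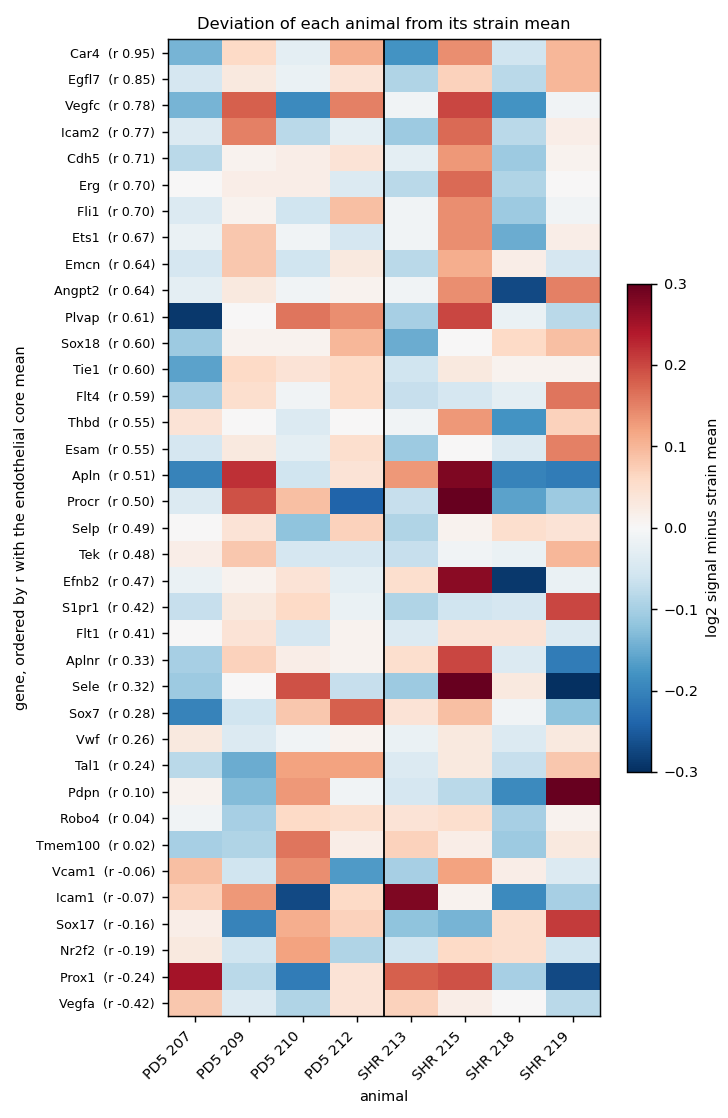
Deviation of each animal's log2 signal from its strain mean (colour, red above and blue below), for the 37 endothelial genes in rows and the 4 PD5 and 4 SHR animals in columns; rows are ordered by their r with the mean of the core genes. The upper rows are mostly red in SHR 215 and mostly blue in SHR 218 and PD5 207, with r from 0.95 for Car4 down to -0.42 for Vegfa.

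Other genes of the same pathways were taken as lists. Over all genes 5.68% had an unadjusted p under 0.05, and nothing is read from the lists' counts against that share. Among 9 measured cytokine-inducible genes, 7 were higher and 2 lower in PD5, and 1 passed over all genes, Nfkbia, which encodes the inhibitor that holds NF-κB in the cytoplasm. Nfkbia fell to between 8.61 and 8.80 in PD5 animals, against 9.45 to 9.76 in SHR animals, a difference of -0.91 (SE 0.08, limma adjusted p = 0.0117). The difference stayed between -0.99 and -0.84 in 17 other settings, but Nfkbia did not pass in 6 of them, where its adjusted p reached 0.287: the brightest probe set, the unmoderated test, and without PD5 207, PD5 210, SHR 218, or PD5 210 and SHR 219 together. The change of variance model, the unmoderated test and the filter on dim genes cannot alter the difference itself. Ccl2, a chemokine for monocytes, ran from 8.89 to 9.14 in PD5 and from 7.93 to 8.63 in SHR, a difference of 0.76 (SE 0.15), and Irf1 was at 0.20 (SE 0.07). Neither passed. The list's median difference was 0.09.

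Among 9 genes of haemostasis and fibrinolysis, 3 were higher and 6 lower in PD5, 0 passed, 2 had an unadjusted p under 0.05, and the median was -0.04. F3, tissue factor, the trigger of clotting, was at 7.54, 7.29, 7.38 and 7.26 in PD5 animals, against 8.09, 8.09, 8.26 and 8.95 in SHR animals. The strains did not overlap, with SHR 219 far above the others, and the difference was -0.98 (SE 0.18). Plau, a plasminogen activator, was at -0.24 (SE 0.08) and Serpind1, heparin cofactor II, at -0.18 (SE 0.13). With the median of the probe sets Plau was at 0.03 (SE 0.14).

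Of 6 lymphatic partners, 5 were higher and 1 lower, 0 passed, 1 had an unadjusted p under 0.05, and the median was 0.08. Lyve1, a hyaluronan receptor of lymphatic endothelium and of some macrophages, was at 9.08, 9.06, 9.04 and 9.20 in PD5 animals, against 9.44, 9.48, 9.47 and 9.59 in SHR animals, without overlap and with a difference of -0.40 (SE 0.07). Macrophage and monocyte markers were lower in 9 of 10 genes, 1 with an unadjusted p under 0.05, and their median difference was -0.09. Their mean log2 levels were 8.37 to 8.41 in PD5 and 8.41 to 8.65 in SHR. Mrc1, at -0.28, and Cd163, at -0.41 and the lowest of the list, were named by their spread. SHR 219 stood apart in that list, at 0.20 above the mean over the animals against -0.03 to 0.04 in the other SHR animals. Without it 8 of 10 markers were lower, with a median of -0.05, Mrc1 at -0.16 and Cd163 at -0.33, and Lyve1 was at -0.37. Their part in the Lyve1 difference was not tested. Ccl21 and Sema3d of the lymphatic list stood at 0.12 (SE 0.08) and 0.23 (SE 0.11). Their brightest probe sets gave -0.08 and 0.04.

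Of 12 hypoxia-responsive genes, 6 were higher and 6 lower, 0 passed and 2 had an unadjusted p under 0.05, with a median of -0.01. Adm, the vasodilator peptide adrenomedullin, ran from 7.24 to 7.51 in PD5 and from 7.72 to 7.84 in SHR, a difference of -0.37 (SE 0.08), and P4ha1, a collagen prolyl hydroxylase, was at -0.26 (SE 0.07). Of 11 measured partners of VEGF and angiopoietin, 5 were higher and 6 lower, 0 passed, 1 had an unadjusted p under 0.05, and the median was -0.01, with Pgf, placental growth factor, at -0.38 (SE 0.14) and at -0.24 without SHR 219. Of 14 ETS, SOX, KLF, GATA and FOX factors, 8 were higher and 6 lower, 0 passed, 3 had an unadjusted p under 0.05, and the median was 0.06. There Klf4 ran from 9.0 to 9.30 in PD5 and from 8.79 to 8.98 in SHR, a difference of 0.28 (SE 0.08), with Ets2 at 0.22 and Etv6 at -0.17. With the median of the probe sets Etv6 was at 0.03.

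The remaining lists held 0 passing genes. Junction partners had 6 of 11 genes higher, 2 with an unadjusted p under 0.05, and a median of 0.03, with Ocln, a tight junction protein, at 0.35 (SE 0.12) and Jam3 at -0.19 (SE 0.08). Ocln lay below the array medians over all probe sets, and its brightest probe set gave 0.02 (SE 0.18). Capillary genes of lipid and water transport had 5 of 10 higher, 1 with an unadjusted p under 0.05, and a median of -0.02, with the fatty acid carrier Fabp4 at -0.22 (SE 0.08). Arterial Notch genes had 8 of 12 higher, 0 with an unadjusted p under 0.05, and a median of 0.05, with Jag1 at 0.16 and Hey2 at 0.28. Endocardial genes had 8 of 9 higher, 1 with an unadjusted p under 0.05, which was Vwf itself, and a median of 0.11, with Cdh11 at 0.13 and Nrg1 at -0.22. The sign of Nrg1 depended on the gene summary, with 0.04 for the median of its probe sets and 0.19 for the brightest.

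Markers of other tissue differed between animals and between strains. The 10 fat markers lay 0.79 above their mean over the animals in PD5 210 and between -0.21 and -0.02 in the other 7. The 10 mesothelial and epicardial markers lay 0.52 above in SHR 219, and -0.24 to -0.08 in the PD5 animals. Of them 9 were lower in PD5, 3 with an unadjusted p under 0.05, and their median difference was -0.29, or -0.09 without SHR 219. All 6 measured atrial markers were higher in PD5, 1 with an unadjusted p under 0.05, with a median of 0.24, or 0.08 without SHR 215 and 0.12 without PD5 212. Their deviations ran from -0.65 in SHR 215 to 0.52 in SHR 219. Their part in the members' differences was not tested. Cardiomyocyte markers had mean log2 levels of 12.24 to 12.35 in both strains, and pericyte and smooth muscle markers of 9.49 to 9.58 in PD5 and 9.48 to 9.58 in SHR. Fibroblast markers lay at 10.38 to 10.44 in PD5 and 10.33 to 10.47 in SHR. Without both PD5 210 and SHR 219, an alternative chosen after the data were seen, S1pr1, Vcam1, Thbd, Vwf and Tmem100 still did not overlap, and 9 members in all did not. The 4 added members were Flt1, Icam1, Selp and Tek. With 3 animals a strain, 10.2% of all genes did not overlap in that setting, against 3.46% with all 8 animals, and nothing is read from the members' count.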

How the data were processed

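Left ventricular RNA was hybridised to 1 array per animal, 4 PD5 and 4 SHR. The deposited values are log2 signals for 220231 probe sets, which the authors made in Partek 6.6 according to the submitters' processing notes. How background was corrected and arrays were normalized, and on which genome build, is not given in the sources at hand. Array medians of 6.93 to 6.98 showed a shared scale, so the values were used as deposited. The number of arrays limits the precision. Of all probe sets, 166557 named 1 gene, 1631 several and 52043 none. Symbols were updated through the GRCr8 gene table (14377 current, 2837 replaced, 95 unmatched), whose coordinates served only for order along chromosomes. A gene's value was the mean of the probe sets naming it alone. PD5 minus SHR was fitted over 17309 genes with limma 3.58.1 in R 4.3.3, with Benjamini-Hochberg adjustment over all genes. The fit was tested on simulated data with known changes. All of these were larger than the difference of any member, so the test does not cover changes of the members' size.

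The members and lists were chosen with earlier results of these data known. Values of every animal are given for members without overlap, for the next by unadjusted p up to 12, and for fixed anchors: Pecam1, Cdh5, Kdr, Flt1, Tek, Tie1, Vwf, Angpt2, Apln, Vegfa, Icam1 and Vcam1, of which Pecam1 and Kdr had no probe set naming them alone and so have no values. Up to 3 non-members per pathway list were named by unadjusted p, and list genes of other cell types by their spread. The within-strain pattern used all measured members. The alternatives were other gene summaries, centring, normalization, variance models, a filter on dim genes and leaving out animals. Promoter windows were shown for S1pr1, Vcam1 and Icam1, chosen after their values were seen.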

Additional observations from a re-analysis of the deposited data

Results flagged for a closer look

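In 174 groups of 4 animals (87 genes in each strain), 9 held 1 animal far from the other 3. Chance alone would give this in about 1 in 20 groups for genes taken without regard to their values. The list genes among the 87 were named by unadjusted p or by spread, so that rate need not hold here. Among the endothelial genes, S1pr1 was 10.27 in SHR 219, against 9.98 to 10.02 in the other SHR animals. Icam1 was 6.78 in PD5 210, against 7.11 to 7.18 in the other PD5 animals. Tie1 was 9.66 in PD5 207, against 9.86 to 9.88 in the other PD5 animals.

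Among the genes of the other lists, PD5 207 stood low in Meox2, at 8.83 against 9.05 to 9.10, and in Ccl21, at 9.45 against 9.69 to 9.72. PD5 209 stood low in Cdh11, at 9.25 against 9.43 to 9.46, and in Cd163, at 7.06 against 7.32 to 7.37, and high in Ets2, at 9.01 against 8.84 to 8.86. PD5 212 stood high in the atrial gene Myl7, at 9.99 against 9.14 to 9.19.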

How the results depend on the processing

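The results were recomputed under 17 other settings, 1 of them chosen after the data were seen. Of all genes, 9 passed at first, 0 with the brightest probe set, 5 with median centring, 5 with quantile normalization, 47 with a trended robust variance model, 0 in an unmoderated test, 0 without both PD5 210 and SHR 219, and 1 to 7 with 1 animal left out (1 without PD5 210 or SHR 218, 2 without PD5 207, 3 without SHR 219, 4 without PD5 212 or SHR 213, 5 without PD5 209). The cause of these shifts was not tested. Of the members, 0 passed except for 1, S1pr1, with the trended robust model. The 6 members with an unadjusted p under 0.05 became 3 with the median of the probe sets, where the share over all genes was 5.69%. They became 4 to 8 with 1 animal left out, where that share was 5.01% to 6.49%. The 5 members without overlap became 8 without PD5 210, where the share over all genes was 7.03%, against 3.46% with all 8 animals. With the median of the probe sets 4 did not overlap, S1pr1, Thbd, Vcam1 and Sox7, where the share was 3.1%. With the brightest probe set 6 did not, S1pr1, Thbd, Flt1, Icam1, Tek and Vegfa, where it was 2.81%. Thbd has 1 probe set, so its values are the same in each gene summary and these settings could not change it. Vwf and Tmem100 thus overlapped with either of these gene summaries, and Vcam1 with the brightest probe set. The members' median difference stayed between 0.03 and 0.08 with 1 animal left out, and within-strain co-variation, at 0.20, was 0.05 with the median of the probe sets and 0.09 to 0.24 with 1 animal left out (0.09 without SHR 215). Of 19 named members, 5 took both signs over the settings: Angpt2, Cdh5, Flt1, Selp and Vegfa. Genes of the other lists were not part of that count. S1pr1 stayed between -0.45 and -0.32 and Vcam1 between 0.20 and 0.46. The trended robust model, the unmoderated test and the filter on dim genes cannot alter a difference, so they add nothing to these ranges and signs. No paired analysis was possible because the strains share no animal number.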
